A study of Bos taurus with 2 samples.

Results

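The proteasome is the large protease that degrades proteins tagged with ubiquitin, and in skeletal muscle it carries out much of the turnover of contractile and regulatory proteins. Its 20S core is a barrel of alpha and beta rings in which 3 constitutive beta subunits hold the active sites, and 19S caps at the ends bind ubiquitinated proteins, unfold them and feed them in. In immune cells, and in other cells exposed to interferon, PSMB8, PSMB9 and PSMB10 take the place of the constitutive catalytic subunits in newly built cores, which are then called immunoproteasomes. The genes described here were 41 subunits and close partners of this complex, chosen by name: 7 alpha subunits, 7 constitutive beta subunits, 3 immunoproteasome subunits, 6 ATPases and 11 non-ATPase subunits of the 19S cap, 3 chaperones of cap assembly and 4 activators. Of these 41 genes, 40 had a probe matched by transcript accession and a value, among 19554 genes with a value on the arrays. *PSME3*, which encodes a nuclear activator, had no probe matched in this way and was not analysed here.

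The study compared the longissimus thoracis muscle, a muscle of the back, of Japanese Black fetuses taken at 8.5 months after conception. Dams of the low-nutrition group (LN) received 60% of their requirement and dams of the high-nutrition group (HN) 120%, from before conception and through gestation, and all were inseminated with male-sorted semen from 1 bull. Total RNA of 4 fetuses was pooled in each group, from the lightest fetuses of the LN group and the heaviest of the HN group, and each pool was hybridised to 1 single-colour array. Diet and selection by body weight therefore cannot be told apart, and no group had 100% of the requirement.

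With 1 array per group, no difference below has a replicate check and none was tested. Differences are log2 LN/HN of the quantile-normalised spot signal, averaged over the probes of a gene, so that 0 means equal signal and negative values mean a lower signal in the LN pool. Levels are log2 signal in arbitrary units and depend on the probe, so a level is read between the pools and not between genes. Summed signals of marker lists, on the linear scale, are likewise read only between the pools, and a bright probe can dominate them. On the arrays, 74.5% of spots in HN and 70.9% in LN were well above background, and no spot was saturated. All 81 probes of the proteasome genes were well above background on both arrays. The scanner software's own error on the log2 ratio of a proteasome probe ranged from 0.20 to 0.31, and the SD between repeated spots of a probe was 0.085 over 42 probes. These errors cover measurement on the array and not the spread between fetuses.

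The proteasome genes as a whole had nearly the same signal in both pools, while the subunits of the immunoproteasome were lower in LN. The median log2 LN/HN of the 40 genes was -0.01, from -0.57 for *PSMB9* to 0.21 for *PSMD5*, beside a median of -0.0033 over all genes. Of the 40 genes, 18 were higher and 22 (55%) lower in LN, beside 50.7% of all genes that were lower. A difference of more than 0.32 on the log2 scale is called here past the threshold. It is the fold at which the study drew its gene lists for pathway analysis. Only *PSMB8* and *PSMB9* were lower past the threshold, which is 2 of 40 genes or 5% of them, beside 9.11% of all genes. No proteasome gene was higher past the threshold, beside 8.85% of all genes, and no proteasome gene differed by more than 2-fold, beside 0.997% of all genes. The share depended on the signal: 4.44% were lower past the threshold among the 8072 genes in the signal range of the other 37 members, and 6.47% among the 2426 genes in the range of the immunoproteasome subunits. The 5% is therefore not read as a difference from the background. A total of 30 of the 40 genes (75%) lay within 0.1 of no difference, beside 38.8% of all genes. The background itself depended on scaling: 1781 genes were lower and 1731 higher past the threshold after quantile normalisation, 2693 and 1191 after scaling to the 75th percentile, and 2260 and 1462 with no normalisation, with *PSMB8* and *PSMB9* past it in each case. After normexp background correction 386 genes were lower and 319 higher past the threshold, and of the proteasome genes only *PSMB9* was, with *PSMB8* at -0.31.

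**Figure D1:**
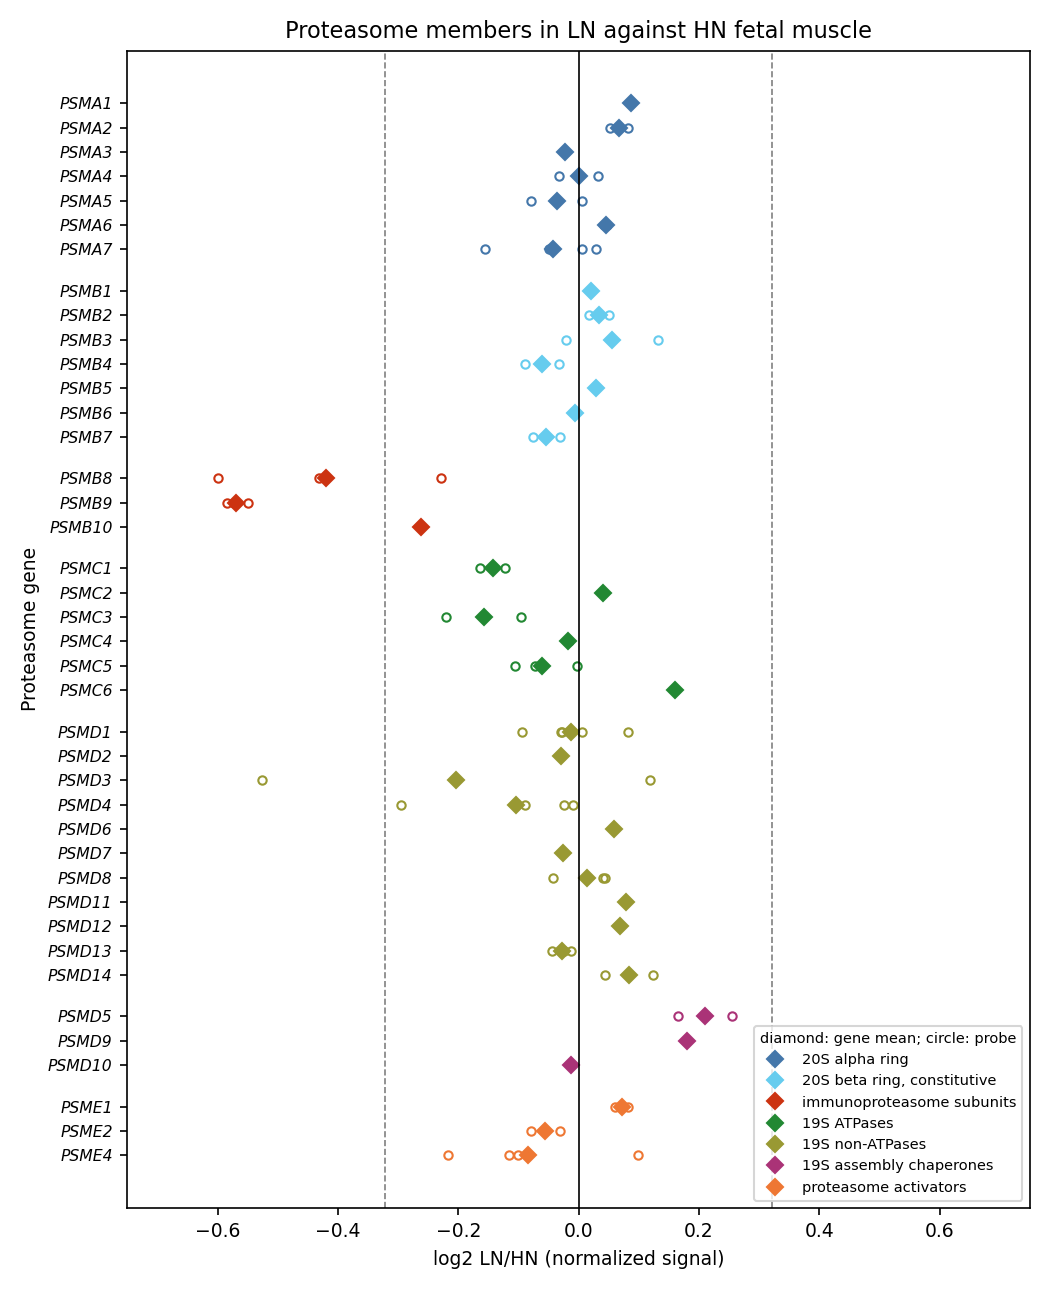
Log2 LN/HN (horizontal axis) of each of the 40 proteasome genes with a value, grouped by class of subunit; diamonds are gene means, open circles are single probes, and dashed lines mark the threshold of 0.32. The diamonds of *PSMB8* at -0.42 and *PSMB9* at -0.57 are the only ones outside the dashed lines, and those of the other classes lie between -0.20 and 0.21.

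*PSMB9*, the subunit that replaces PSMB6, had a log2 signal of 7.87 in HN and 7.30 in LN. Its signal was therefore lower in LN, with a log2 LN/HN of -0.57 ± 0.018 (SD between 3 probes), or 1.48-fold. All 3 probes gave almost the same difference. They read 9.05 in HN and 8.48 in LN, 9.10 and 8.52, and 5.47 and 4.92, with differences of -0.57, -0.59 and -0.55. Each of them was lower in LN past the threshold.

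*PSMB8*, the subunit that replaces PSMB5, the chymotrypsin-like catalytic subunit, had a log2 signal of 7.67 in HN and 7.25 in LN. It was lower in LN by 1.34-fold, with a log2 LN/HN of -0.42 ± 0.19 (SD between 3 probes). Its probes read 8.62 in HN and 8.19 in LN, 6.73 and 6.50, and 7.65 and 7.05, so the probes shared a direction but ranged in size from -0.23 to -0.60.

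*PSMB10*, the subunit that replaces PSMB7, the trypsin-like catalytic subunit, was measured by 1 probe, with a log2 signal of 6.75 in HN and 6.49 in LN. Its log2 LN/HN was -0.26, or 1.20-fold lower in LN, which did not reach the threshold and exceeded the software's error of 0.21 by little. All 7 probes of the immunoproteasome subunits were lower in LN, and 5 of the 7 were lower past the threshold, beside 9.44% of all probes lower past it and 18.6% past it in either direction. These 5 probes belong to *PSMB8* and *PSMB9* alone, and probes of 1 gene are not independent. The median of the 3 immunoproteasome genes was -0.42.

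Among all genes with a value, 2.30% had a difference at or below that of *PSMB9*, 5.39% at or below that of *PSMB8* and 12.6% at or below that of *PSMB10*. Among the 2426 genes whose mean signal lay in the range of these 3 genes, 6.47% were lower in LN past the threshold, and the corresponding shares were 0.907%, 3.17% and 10.2%. These shares place *PSMB9* far down the distribution and *PSMB10* well inside it.

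**Figure D2:**
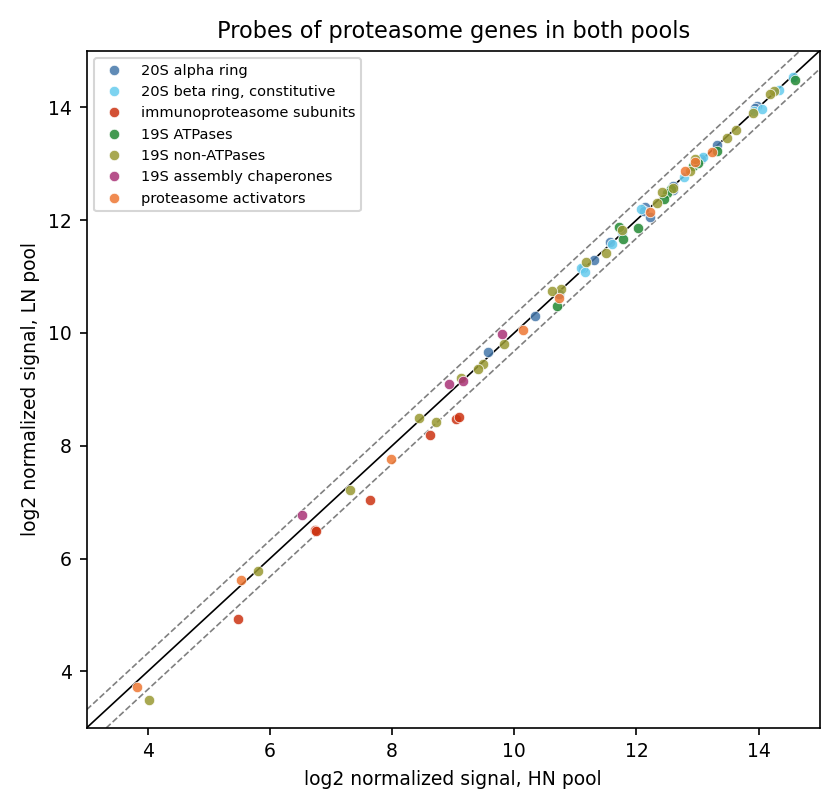
Log2 signal of the 81 proteasome probes in the LN pool (vertical axis) against the HN pool (horizontal axis), coloured by class of subunit, with a solid line at equal signal and dashed lines at a difference of 0.32. The 7 immunoproteasome probes all lie below the solid line and 5 of them below the lower dashed line, where the only other probe is the dim one of *PSMD3* at 4.02 in HN and 3.49 in LN.

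The constitutive catalytic subunits that these genes replace had nearly equal signals in the pools. *PSMB5* had a log2 signal of 13.10 in HN and 13.12 in LN, with a log2 LN/HN of 0.03. *PSMB6*, which holds the caspase-like site, had 12.78 in HN and 12.77 in LN, a difference of -0.01. *PSMB7* had 12.75 in HN and 12.69 in LN, a difference of -0.05 over 2 probes. The difference of *PSMB8* relative to that of *PSMB5* was -0.45 on the log2 scale, with a software error of 0.24, and that of *PSMB9* relative to that of *PSMB6* was -0.56, with a software error of 0.24. For *PSMB10* relative to *PSMB7* the difference was -0.21, smaller than its software error of 0.25. The signal of the immunoproteasome subunit relative to its counterpart was therefore lower in LN for all 3 pairs, and beyond the software error for 2 of them.

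The remaining subunits of the 20S core varied little. The alpha ring forms the gate of the barrel, and its 7 genes had a median log2 LN/HN of 0.00, with 4 higher and 3 lower in LN. *PSMA1* was the highest of them, with a log2 signal of 12.14 in HN and 12.23 in LN, a difference of 0.09. *PSMA7* was the lowest, with 12.15 in HN and 12.11 in LN, a difference of -0.04, and its 4 probes ranged from -0.15 to 0.03. The other alpha genes, *PSMA2* to *PSMA6*, lay between these values.

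The 7 constitutive beta genes had a median of 0.02, with 4 higher and 3 lower in LN. *PSMB3*, a structural subunit, was the highest, with a log2 signal of 11.83 in HN and 11.89 in LN, a difference of 0.06. *PSMB4*, also structural, was the lowest, with 14.31 in HN and 14.25 in LN, a difference of -0.06. *PSMB1* and *PSMB2* differed by 0.02 and 0.03. All 14 alpha and constitutive beta genes lay within 0.1 of no difference, and the SD over these 14 genes was 0.047.

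The 19S cap had a median of -0.02 over 17 genes. The 6 ATPases, which form the ring that unfolds substrates, ranged most widely, from -0.16 to 0.16, with 2 higher and 4 lower in LN. *PSMC6* was the highest, with a log2 signal of 11.72 in HN and 11.88 in LN from 1 probe. *PSMC3* was the lowest, with 12.00 in HN and 11.85 in LN, and its 2 probes gave -0.10 and -0.22. *PSMC1* was also lower, by -0.14, whereas *PSMC2*, *PSMC4* and *PSMC5* lay between -0.06 and 0.04.

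The 11 non-ATPase genes of the cap had a median of -0.01, with 5 higher and 6 lower in LN. *PSMD14*, which encodes the enzyme that removes ubiquitin chains from substrates, was the highest, with a log2 signal of 9.53 in HN and 9.62 in LN, a difference of 0.08. *PSMD3*, a scaffold subunit, was the lowest at -0.20, but its 2 probes went opposite ways. The bright probe read 12.96 in HN and 13.08 in LN, a difference of 0.12, and the dim probe read 4.02 and 3.49, a difference of -0.53. With the brightest probe of each gene alone the value was 0.12, and with another background correction it was 0.05, so no direction is given for *PSMD3*. *PSMD4*, a receptor for ubiquitin chains, had 11.68 in HN and 11.58 in LN, a difference of -0.10 over 4 probes that ranged from -0.30 to -0.01. The other 8 genes, among them the large scaffold subunits *PSMD1* and *PSMD2*, lay within 0.1 of no difference.

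The chaperones of cap assembly, which hold ATPases until the ring closes, included the highest member of all. *PSMD5* had a log2 signal of 7.73 in HN and 7.94 in LN, a difference of 0.21, or 0.17 and 0.25 in its 2 probes, and *PSMD9* had 9.80 in HN and 9.98 in LN, a difference of 0.18. The 4 repeated spots of 1 *PSMD5* probe gave differences between 0.13 and 0.20, all higher in LN. *PSMD10* had 9.16 in HN and 9.15 in LN, a difference of -0.01, so the chaperones did not move together. Neither *PSMD5* nor *PSMD9* reached the threshold.

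Activators open the gate of the core without ubiquitin or ATP. *PSME1* and *PSME2* encode the subunits of PA28, which like the immunoproteasome is induced by interferon gamma. *PSME1* had a log2 signal of 12.88 in HN and 12.95 in LN, a difference of 0.07. *PSME2* had 12.73 in HN and 12.67 in LN, a difference of -0.05. Both lay within 0.1 of no difference, unlike the immunoproteasome subunits. *PSME4*, which encodes the large activator PA200, had 7.64 in HN and 7.56 in LN, a difference of -0.08 over 5 probes that ranged from -0.22 to 0.10.

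Without the 3 immunoproteasome genes, the other 37 genes had a median of -0.0064 and an SD of 0.087. None of the 37 was past the threshold, beside 7.69% of the 8072 genes in the same range of mean signal, and 30 (81.1%) lay within 0.1 of no difference, beside 49.5%. The SD over these 8072 genes was 0.20. They were dimmer, with a median log2 signal in HN of 9.46 beside 12.0 for the 37 genes. The range of signal was thus shared but its level was not matched. The narrower spread of the 37 genes is therefore not read as particular to them. For 33 of the 37 genes the difference was smaller than the software's error for the gene. The 4 exceptions were *PSMC3*, *PSMD3*, *PSMD4* and *PSMD5*. Over the proteasome probes the median of this error equalled its lowest value, 0.204. The error of a gene therefore depended mainly on its number of probes. The SD between probes of a gene had a median of 0.049 over the 23 of these genes with several probes, and reached 0.46 for *PSMD3*, beside a median of 0.098 over the 6896 genes of the arrays with several probes. The sign of the small differences depended on the processing: across the 7 alternatives that could move these values, 25 of the 40 genes kept their sign and 15 did not.

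**Figure D3:**
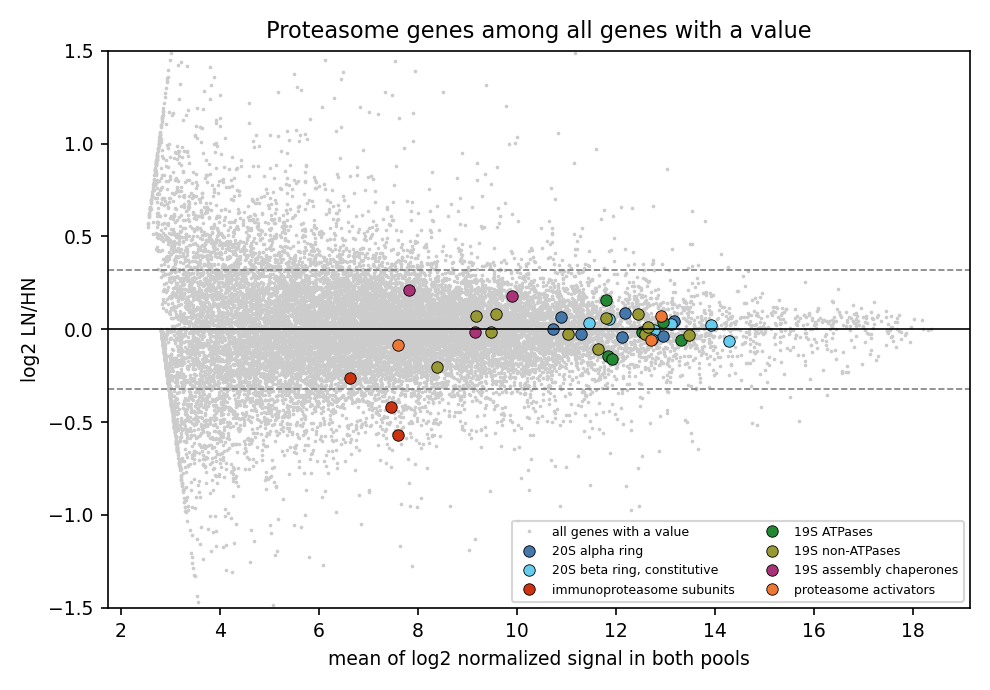
Log2 LN/HN (vertical axis) against mean log2 signal (horizontal axis) of all genes with a value in grey and of the 40 proteasome genes in colour by class, with dashed lines at a difference of 0.32; the vertical axis ends at 1.5 in each direction, which leaves out 33 genes. The 37 other proteasome genes lie in a narrow band around 0 at medium to high signal, and *PSMB8* and *PSMB9* lie below it.

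Genes that assemble or regulate the proteasome but are not among the 41 were read as well. Of 17 such genes 14 had a value, with a median of -0.03, 9 lower and 5 higher in LN, and none past the threshold, beside 9.11% of all genes lower and 8.85% higher past it. *POMP*, the chaperone that completes 20S cores, was the highest, with a log2 signal of 13.67 in HN and 13.86 in LN, a difference of 0.19. *ADRM1*, a ubiquitin receptor of the cap, was the lowest at -0.18, over 4 probes that ranged from -0.32 to -0.07. Of the 14 genes, 8 (57.1%) lay within 0.1 of no difference, beside 38.8% of all genes and 49.5% of genes in the signal range of the subunits.

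The transcription factors that induce proteasome genes, with the proteins that process them, had a median of 0.03 over 10 of 12 genes, with 3 lower and 7 higher. *NFE2L1*, the factor that raises subunit genes when proteasome activity drops, had a difference of 0.01, and its 5 probes ranged from -0.06 to 0.06. *NGLY1*, the enzyme that removes sugar chains from this factor, was the highest at 0.24. *NFE2L3*, a related factor, was the only one past the threshold, 1 of 10 beside 9.11% of all genes, with a log2 signal of 4.15 in HN and 3.71 in LN, a difference of -0.45 from 1 dim probe, or -0.16 after normexp correction.

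Genes for ubiquitin and for delivery to the proteasome had a median of -0.03 over 14 of 15 genes, with 8 lower and 6 higher and none past the threshold, beside 18.0% of all genes past it in either direction. The polyubiquitin gene *UBB* was the lowest at -0.26, with 4 probes between -0.40 and -0.10, and *NPLOC4*, a cofactor of the unfoldase VCP, was the highest at 0.19, with 3 probes between -0.06 and 0.42. The medians of these 3 lists were all within 0.1 of no difference.

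The immunoproteasome is part of the pathway that supplies peptides to MHC class I, and genes of that pathway and of the interferon response were mostly lower in LN. Of 20 genes 15 had a value, with a median of -0.09, which ranged from -0.17 to -0.06 over the alternative processings. In LN, 12 of the 15 were lower and 3 higher, and 5 (33.3%) were lower past the threshold, beside 9.11% of all genes. *B2M*, the light chain of MHC class I, had a log2 signal of 12.66 in HN and 12.30 in LN, a difference of -0.37, with 4 probes between -0.45 and -0.28, the brightest of which was inside the threshold. *BOLA*, a class I heavy chain, had 13.80 in HN and 13.24 in LN, a difference of -0.56, with 3 probes between -0.60 and -0.47. The class I genes of cattle are near-identical copies, so these probes cannot be assigned to 1 of them with certainty.

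Among the transcription factors of this response, *IRF1* had a log2 signal of 8.30 in HN and 7.88 in LN, a difference of -0.42. This came from 1 of its 2 probes, as the other was not well above background on either array. *IRF9* had 7.68 in HN and 7.34 in LN, a difference of -0.34. *CXCL9*, a chemokine induced by interferon gamma, was at least 2.44-fold lower in LN, where its probe was not well above background. This bound depended on the processing, since its log2 LN/HN ranged from -3.21 as measured with no limit to -0.32 after normexp correction, where it was not past the threshold. *IRF9* also lost the threshold in 5 of the 12 alternatives, with -0.16 after normexp correction. *STAT2*, by contrast, had a difference of 0.20, also from 1 of its 2 probes. The highest gene was *ERAP1*, which trims peptides, at 0.22. The list was thus lower in part and not as a block.

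Values of the nearest genes were also read. In the RefSeq gene order of cattle, *TAP1*, which encodes a subunit of the peptide transporter, lies between *PSMB8* and *PSMB9*, and *TAP2* lies close by. *TAP1* had a difference of -0.09, in which 1 of 2 probes gave only a bound, and *TAP2* had -0.04. The other neighbours within 3 places that had a value were LOC618733 at -0.19, *H2B* at -0.20 and the class II gene *BOLA-DMB* at -0.20. All 5 were lower in LN, with smaller differences than *PSMB8* and *PSMB9*. Beside *PSMB10*, *PSKH1* was at -0.32, further from 0 than *PSMB10* itself, while *LCAT* was at 0.03 and *SLC12A4* at -0.0034.

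Because the RNA came from whole muscle, fewer cells of a type and less RNA per cell cannot be told apart. Leukocytes express immunoproteasome subunits at high levels, and most leukocyte markers of the list chosen here were lower in LN. The list did not include *MPO*, a gene of neutrophil granules. *MPO* was the highest of the 10637 genes with a symbol, with a log2 LN/HN of 3.11. Of 20 markers 18 had a value, with a median of -0.23, or -0.096 after normexp background correction. In LN, 17 of the 18 were lower and 1 higher, beside 50.7% of all genes lower, and 7 (38.9%) were lower past the threshold, beside 9.11%. The summed signal of the list was 24972 in HN and 21987 in LN, of which *CD4*, measured by a single bright probe while its other 3 probes gave no value, made up 60.6% in HN. Without *CD4* the sum was 9836 in HN and 8193 in LN. *PTPRC*, the defining marker CD45, had a log2 signal of 6.85 in HN and 6.63 in LN, and the defining markers *MS4A1* and *ITGAM* were not well above background on either array.

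The 7 markers past the threshold were *CD74*, the class II invariant chain, at -0.58, the macrophage complement genes *C1QB* at -0.45 and *C1QC* at -0.40, *CORO1A* at -0.45, *CD2* at -0.44, *CD8A* at -0.42 and the macrophage gene *CD68* at -0.35. The 1 marker with a mean above 0 was *CD3E* at 0.05, but its 2 probes went opposite ways, -0.40 for the brighter and 0.50 for the dimmer, so no direction is given for it. After normexp correction *CD2* (-0.095), *CD8A* (-0.11), *CD68* (-0.13) and *CORO1A* (-0.20) were not past the threshold, nor was *CD68* with its brightest probe (-0.28) or *CD8A* with no filter on dim probes (-0.097). The other 11 markers with a value, *CD3E* among them, lay inside the threshold. The part of leukocyte content in the result for the immunoproteasome was not tested.

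Signals of markers of other cell types also differed between the arrays. Endothelial markers had a median of -0.24 over 10 genes, with 9 lower and 1 higher in LN, a summed signal of 9210 in HN and 7464 in LN, and *EGFL7* (-0.45, or -0.31 with its brightest probe) and *CLDN5* (-0.39) past the threshold, which is 20% of them beside 9.11% of all genes. The 1 gene with a mean above 0 was *VWF* at 0.02, for which 4 of 5 probes lay between -0.24 and -0.13, 1 of them a bound, and a single probe at 0.85 turned the mean. Fibroblast and matrix markers were all higher in LN, with a median of 0.34 over 10 genes, from 0.11 for *DCN* to 0.49 for *PDGFRB*, beside 8.85% of all genes higher past the threshold, and a summed signal of 24473 in HN and 29880 in LN. The 6 past the threshold were *PDGFRB*, *POSTN* (0.45), *COL1A2* (0.42), *LUM* (0.35), *COL1A1* (0.34) and *COL3A1* (0.33), or 60% of the list. *PDGFRB* had 1 probe of 3 that gave only a bound, and its value was 0.30 with probes measured on both arrays, 0.16 after normexp correction and 0.064 with its brightest probe. *LUM* was 0.25 after normexp correction and 0.25 with its brightest probe, and *COL1A1*, *COL3A1* and *POSTN* lay between 0.31 and 0.32 in the settings that put them inside the threshold. Most of the listed leukocyte and endothelial markers thus lay on the lower side, and the matrix markers on the higher side.

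Skeletal muscle markers, which should dominate this tissue, were strongly detected, *ACTA1* with a log2 signal of 17.57 in HN and 17.53 in LN. Their median was -0.14 over 15 of 18 genes, 12 lower and 2 higher in LN, with a summed signal of 963200 in HN and 909160 in LN. The remaining gene, *TNNC2*, held the brightest probe on both arrays, which quantile normalisation sets equal, so it has no difference to report, and without it the sums were 628790 and 574750. *MYH1*, a fast myosin heavy chain, at -0.50 and myoglobin, *MB*, at -0.37 were lower and the perinatal myosin heavy chain *MYH8* at 0.35 was higher, each past the threshold, beside 9.11% of all genes lower and 8.85% higher, and with the brightest probe alone *MYH8* was 0.04 and *MB* -0.31. Adipocyte markers had a median of -0.09 over 6 of 8 genes, or 0.025 with no filter on dim probes, from -0.27 for *LIPE*, whose 2 probes gave -0.02 and -0.51, to 0.39 for *FABP4*, the only one past the threshold. Erythroid markers had a median of -0.09 over 6 of 9 genes, from -0.18 for *HBG* to 0.00 for *HBA*. The part of any of these cell types in the values of the proteasome genes was not tested.

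**Figure D4:**
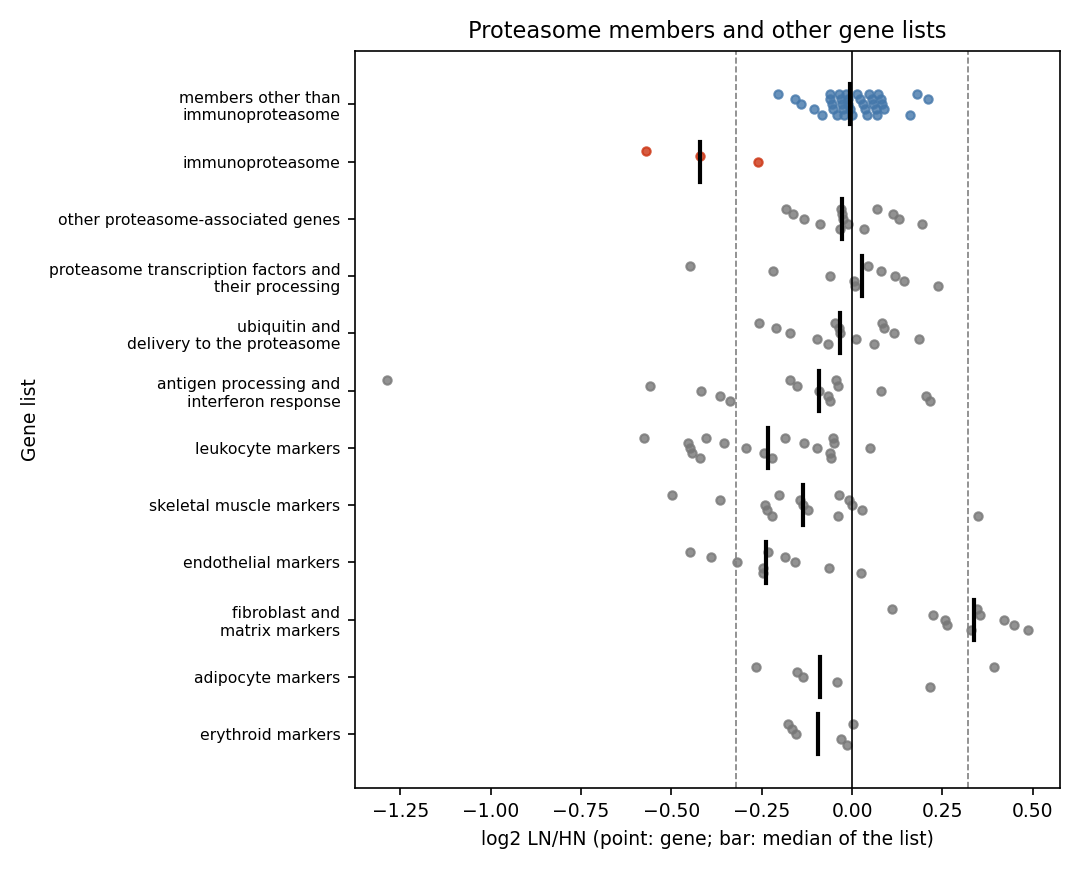
Log2 LN/HN (horizontal axis) of the genes in each list (vertical axis), with 1 point per gene, a bar at the median and dashed lines at a difference of 0.32; the point of *CXCL9*, farthest to the left, is a bound. The medians of the immunoproteasome subunits (-0.42), leukocyte markers (-0.23) and endothelial markers (-0.24) lie below 0, that of fibroblast and matrix markers (0.34) lies above it, and that of the other proteasome genes (-0.0064) lies close to it.

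The settings that could move the values of the immunoproteasome genes were 7 of the 12 alternatives, since the 4 treatments of dim probes and the keeping of outlier spots left all proteasome values as they were. All 3 genes were lower in LN in each of the 7. *PSMB8* ranged from -0.45 to -0.31, *PSMB9* from -0.59 to -0.43 and *PSMB10* from -0.31 to -0.14, in each case smallest after normexp background correction, where *PSMB9* alone stayed past the threshold. No other proteasome gene passed the threshold in any setting, and the extremes of the other 37 genes over all settings were -0.29 for *PSMD3* and 0.23 for *PSMD5*.

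**Figure D5:**
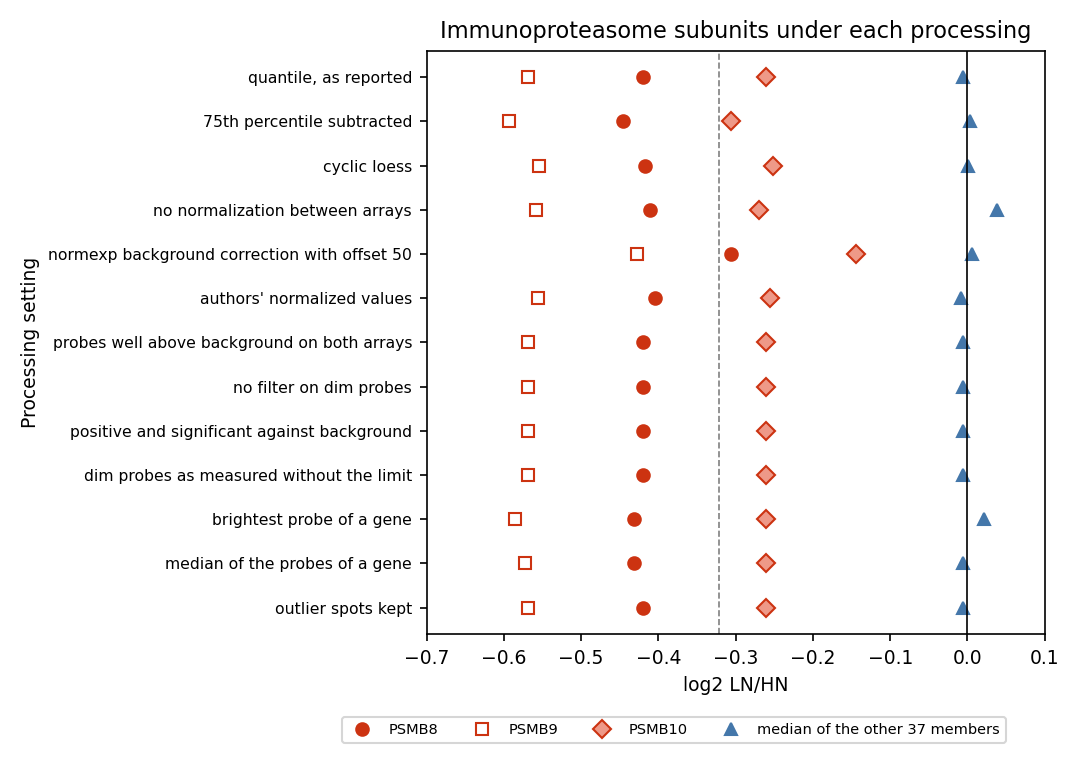
Log2 LN/HN (horizontal axis) of *PSMB8*, *PSMB9*, *PSMB10* and the median of the other 37 proteasome genes under each of the 13 processing settings (vertical axis), 5 of which could not move these values; the dashed line marks the threshold. The 3 immunoproteasome genes lie below 0 in every setting and the median of the others stays near it.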

How the data were processed

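Each pool was hybridised to 1 Agilent bovine 4x44K single-colour array, both on the same slide. The authors scanned the arrays and extracted signals with Agilent Feature Extraction 11.0.1.1, per the submitters' processing notes. The deposited scanner files hold background-subtracted spot intensity values, and the authors' deposited table holds log2 values that they quantile-normalised in GeneSpring. Its filter is not given in the sources used here.

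The deposited intensity values were taken as log2 of the processed signal and quantile-normalised (limma 3.58.1, R 4.3.3) over 43803 spots that were not controls. Then 13 flagged outlier spots were dropped and spots of a probe averaged. Of 43652 probes, 32775 were detected, that is, well above background on 1 or both arrays. Where only 1 array measured a probe, the other was given its own lowest well-measured signal (log2 2.27 in HN, 2.82 in LN), and the difference is a bound. A gene's value is the mean over its probes. Probes were named through RefSeq accessions (26742 matched to 12603 symbols), and the gene order came from the same table (assembly ARS-UCD2.0). Other steps used Python 3.11.15 with numpy 2.4.6 and pandas 2.3.3, and figures matplotlib 3.10.9.

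Groups followed the labels, and n is 1 pool per group, so no test was run. The number of arrays limits the precision. The software's error of a gene assumes independent errors of its probes. The threshold of 0.32 (log2) is the study's fold for the gene lists of its pathway analysis. Values are given for genes past it, the immunoproteasome and PA28 genes, their counterparts, and the highest and lowest of each class or list, and other genes were named for their roles or probes after their values were seen. The members and lists were chosen with earlier results of these data known. The 12 alternatives were 4 other treatments of the scanner signal (75th percentile, cyclic loess, no normalisation, normexp with offset 50), the authors' values, 4 treatments of dim probes, 2 summaries of probes, and outlier spots kept. Normexp was run on the median signal, as the files hold no mean signal. The script was tested on simulated data with known changes. No sequences are shown, because none were in the files used here.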

Additional observations from a re-analysis of the deposited data

How the results depend on the processing

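Under the 12 alternatives (10 gave a value for *CXCL9*, 11 for *MYH1* and *MYH8*), no gene past the threshold of 0.32 on the log2 scale turned its direction, but of the 25 such genes outside the proteasome 16 were inside the threshold in at least 1 alternative, 10 of them with normexp. With normexp background correction, 1 proteasome gene (*PSMB9*) was lower past the threshold in place of 2, the median of the immunoproteasome genes was -0.31 and that of the leukocyte markers -0.096. The median of the adipocyte markers was 0.025 with no filter on dim probes and 0.025 with the filter for signal positive and significant against background. For the proteasome genes, 5 of the 12 alternatives could not move a value, as all their probes were well above background and none of their spots was flagged as an outlier. The other 307 values that answer a comparison, those included, moved by less than 0.098, the median SD between probes of a gene, or, for counts, stayed within 1.5 times. Over all genes, the median was -0.04 after scaling to the 75th percentile, and normexp left 386 genes lower and 319 higher past the threshold. No paired analysis was possible because each group has 1 array. For the same reason no array could be left out in turn. Pooling of 4 fetuses hides how much they varied. The errors given cover the array measurement, and a difference below about 0.20 on the log2 scale is within them for a gene with 1 probe.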
